A study of Rattus norvegicus with 12 samples.

Results

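In the kidney cortex of rats, 9 genes of mitosis had lower array signals 24 h after 150 and 300 mg/kg of the antibiotic cephaloridine (CER) than after saline, and higher signals after 600 mg/kg than after 300 mg/kg. They are Cdk1, Ccnb1, Bub1, Ska1, Knstrn, Cdc20, Top2a, Mki67 and Prc1. Probes were taken by the gene name or accession in the array files, where Cdk1 is written Cdc2a, Ska1 is RGD1310784_predicted and Knstrn is Traf4af1. The 9 genes hold 11 of the 41012 probes on the array, with 2 probes each for Ccnb1 and Top2a, and are 9 of 35529 genes and unmatched transcripts. All 11 probes were well above background on all 12 arrays, so the filter on dim probes, which left 20756 genes to be tested, removed none of the 9. The 9 were chosen by their measured array signals in these 4 dose groups, so their levels and dose differences are a description and carry no p-value.

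Male Fisher 344 rats aged 8 weeks received 1 intravenous injection and were killed 24 h later. The groups were control (saline alone, 0 mg/kg), low (150 mg/kg CER), middle (300 mg/kg CER) and high (600 mg/kg CER), each of 3 animals with 1 one-colour array per animal. Saline was also the solvent of the CER doses. CER is a cephalosporin that proximal tubule cells take up and that injures them, and the stated purpose was to set subtoxic doses beside toxic ones.

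Marker genes of kidney cell types were read as a description of the tissue. No list was made for the inner medulla or papilla, so the markers cannot tell cortex from whole kidney. All 9 proximal tubule markers were well above background on all arrays, as were 6 of 7 markers of the loop, distal tubule and collecting duct (Pvalb on none), 7 of 7 endothelial markers and 4 of 5 podocyte markers. Across arrays the 75th percentile of the signal ran from 627 to 712 intensity units, 59.2% to 63.3% of probes were well above background, and 0 spots were saturated. Slide 1 carried controls 1 to 3 and low 1, slide 2 low 2 and middle 1, slide 3 low 3 and middle 2, and slide 4 middle 3 and high 1 to 3. Control and high animals never shared a slide, so small differences between them cannot be told apart from differences between slides. Slide 2 was scanned on another day than the rest.

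Mitosis is driven by the kinase CDK1 bound to cyclin B. Condensed chromosomes attach to the spindle at their kinetochores, a checkpoint holds the cell until attachment is complete, and the anaphase-promoting complex then releases the sister chromatids before the central spindle guides cytokinesis. Transcripts of these proteins accumulate in the G2 phase and mitosis of dividing cells and are repressed in resting cells, so that in an adult kidney, where few tubule cells divide, they come from a minority of cells. In whole cortex, fewer dividing cells and less of a transcript per cell cannot be told apart.

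Many late cell cycle genes carry in their promoter a short element, the cell cycle homology region (TTTGAA, with TTTAAA as a variant), with CCAAT boxes nearby. The 5 stretches of promoter printed here, each the 100 bases before the gene start in RefSeq's GRCr8 annotation, are shown because they differ in this layout, Cdk1, Ccnb1, Cdc20 and Prc1 with both kinds of element and Knstrn with a homology region alone. Capitals mark the homology region, which reads TTCAAA where it lies on the other strand, and the CCAAT box, which then reads ATTGG. The variant TTTAAA reads the same on both strands. The stretches lie at chr20:19265193-19265292 (plus strand) for Cdk1, chr2:33655226-33655325 (minus strand) for Ccnb1, chr5:137255800-137255899 (minus strand) for Cdc20, chr1:143659381-143659480 (plus strand) for Prc1 and chr3:126254596-126254695 (plus strand) for Knstrn.
Cdk1: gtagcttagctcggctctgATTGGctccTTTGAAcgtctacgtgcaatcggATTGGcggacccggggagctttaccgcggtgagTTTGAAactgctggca
Ccnb1: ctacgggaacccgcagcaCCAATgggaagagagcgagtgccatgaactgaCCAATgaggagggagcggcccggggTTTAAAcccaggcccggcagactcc
Cdc20: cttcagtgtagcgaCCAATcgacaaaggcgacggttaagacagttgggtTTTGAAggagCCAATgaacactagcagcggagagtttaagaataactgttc
Prc1: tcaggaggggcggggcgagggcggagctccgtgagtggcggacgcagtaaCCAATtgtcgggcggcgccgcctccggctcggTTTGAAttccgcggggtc
Knstrn: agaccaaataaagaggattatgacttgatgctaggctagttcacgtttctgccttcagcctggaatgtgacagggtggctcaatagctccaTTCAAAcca

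Over the window from 250 bases before to 50 bases after the start, TTTGAA on either strand stood in the promoters of 7 of the 9 genes, and TTTAAA in those of the other two, Ccnb1 and Bub1. A CCAAT box on either strand stood in 7 of 9, with none in Bub1 and Knstrn, and 6 held at least 2. For scale, TTTGAA or TTTAAA was found in 28.3% of the 33469 rat promoters in the RefSeq table and in 19.2% of the 9606 tested genes with a promoter there, and a CCAAT box in 37.5% and 37.8%. No 2 marked elements share a base in the printed stretches. A match of letters is a description of the window and not a measured binding site.

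Signals are given below as a percent of each array's 75th percentile, a scale on which arrays can be compared for 1 probe but not 1 probe with another. Cdk1, the kinase that starts mitosis, had 388, 350 and 415% in control animals 1 to 3. It had 226, 214 and 233% at 150 mg/kg and 234, 271 and 183% at 300 mg/kg. At 600 mg/kg it had 547, 432 and 536%, above every control, while each low and middle animal lay below every control. The log2 difference from control was -0.77 at 150 mg/kg (1.71-fold lower), -0.76 at 300 mg/kg (1.69-fold lower) and 0.39 at 600 mg/kg (1.31-fold higher), each with a limma standard error of 0.14 (n = 3 animals per group).

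Ccnb1, the cyclin B1 that activates CDK1, returned less far. Its brighter probe had 121, 96.4 and 107% in controls, 63.3, 62.0 and 65.4% at 150 mg/kg and 60.7, 60.8 and 48.1% at 300 mg/kg. At 600 mg/kg it had 91.9, 82.3 and 96.3%, below every control, though high 3 came within a fraction of a percentage point of control 2, and above every middle animal. The log2 differences from control were -0.76, -0.94 and -0.26 at 150, 300 and 600 mg/kg (standard error 0.11). A second, dimmer Ccnb1 probe had 29.9, 22.2 and 24.9% in controls, 14.8, 13.5 and 15.6% at 150 mg/kg, 14.1, 13.5 and 11.8% at 300 mg/kg and 22.9, 20.5 and 23.8% at 600 mg/kg. Its differences were -0.80, -0.96 and -0.19 (standard error 0.12), with the high animals overlapping the controls. With slide as a block the Ccnb1 difference at 600 mg/kg turned to 0.06, so its place relative to control at that dose has no settled direction.

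At the kinetochore, Bub1, a kinase of the spindle checkpoint, had 96.5, 86.9 and 105% in controls. It had 68.2, 67.1 and 74.2% at 150 mg/kg, 75.6, 78.7 and 63.5% at 300 mg/kg and 141, 124 and 150% at 600 mg/kg. The low and middle animals lay below every control and the high animals above, with log2 differences of -0.46, -0.41 and 0.53 (standard error 0.11). Its lower levels at 150 and 300 mg/kg were the smallest of the 9 genes in log2 size.

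Ska1, part of the complex that couples kinetochores to microtubules, had the widest range of the 9 between dose groups in log2 size. Its values were 10.6, 10.0 and 12.5% in controls, 6.47, 5.54 and 6.98% at 150 mg/kg, 6.41, 5.53 and 4.07% at 300 mg/kg and 17.8, 14.2 and 18.0% at 600 mg/kg. The log2 differences from control were -0.80, -1.07 and 0.59 (standard error 0.17), and the high animals stood 1.66 above the middle animals.

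Knstrn, the kinastrin of kinetochores and the spindle, had 26.0, 23.0 and 22.9% in controls and 14.1, 13.6 and 15.3% at 150 mg/kg. It had 11.0, 11.9 and 9.68% at 300 mg/kg and 16.7, 13.9 and 18.4% at 600 mg/kg. Here the high animals lay above every middle animal, overlapped the low ones and stayed below every control. The log2 differences from control were -0.74, -1.15 and -0.56 (standard error 0.11), so Knstrn was the member whose level at 600 mg/kg lay furthest below control.

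Cdc20, the activator that turns on the anaphase-promoting complex, had 196, 167 and 185% in controls. Its values were 127, 120 and 134% at 150 mg/kg, 127, 151 and 122% at 300 mg/kg and 218, 193 and 210% at 600 mg/kg. The log2 differences were -0.52, -0.46 and 0.18 (standard error 0.096). High 2 lay below control 1, so the high and control animals overlapped.

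On the chromosomes themselves, Top2a, the topoisomerase that untangles sister DNA, had 158, 143 and 180% in controls on its brighter probe. That probe had 99.9, 93.4 and 108% at 150 mg/kg, 105, 111 and 80.3% at 300 mg/kg and 219, 181 and 230% at 600 mg/kg. Its log2 differences of -0.67, -0.70 and 0.39 (standard error 0.14) were close to those of the second probe, -0.64, -0.80 and 0.36 (standard error 0.11). On that second probe the animals had 27.1, 24.6 and 32.4% in controls, 17.8, 16.9 and 18.8% at 150 mg/kg, 16.9, 16.7 and 14.5% at 300 mg/kg and 34.6, 33.2 and 39.4% at 600 mg/kg.

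Mki67, the Ki-67 protein that coats mitotic chromosomes and marks dividing cells, had 31.6, 26.8 and 29.7% in controls. It had 18.6, 18.9 and 19.1% at 150 mg/kg, 19.9, 18.6 and 13.5% at 300 mg/kg and 40.4, 36.1 and 41.8% at 600 mg/kg. Neither the 2 lower dose groups nor the high group overlapped the controls, with log2 differences of -0.64, -0.78 and 0.43 (standard error 0.13).

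Prc1, which bundles the microtubules of the central spindle, had 16.7, 15.2 and 14.7% in controls. It had 9.42, 9.32 and 9.18% at 150 mg/kg, 8.53, 6.72 and 6.53% at 300 mg/kg and 18.9, 16.4 and 18.0% at 600 mg/kg. Low animals lay close together and below every control, and each middle animal lay below each low one. The log2 differences from control were -0.74, -1.11 and 0.19 (standard error 0.10), and high 2 lay below control 1.

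**Figure D1:**
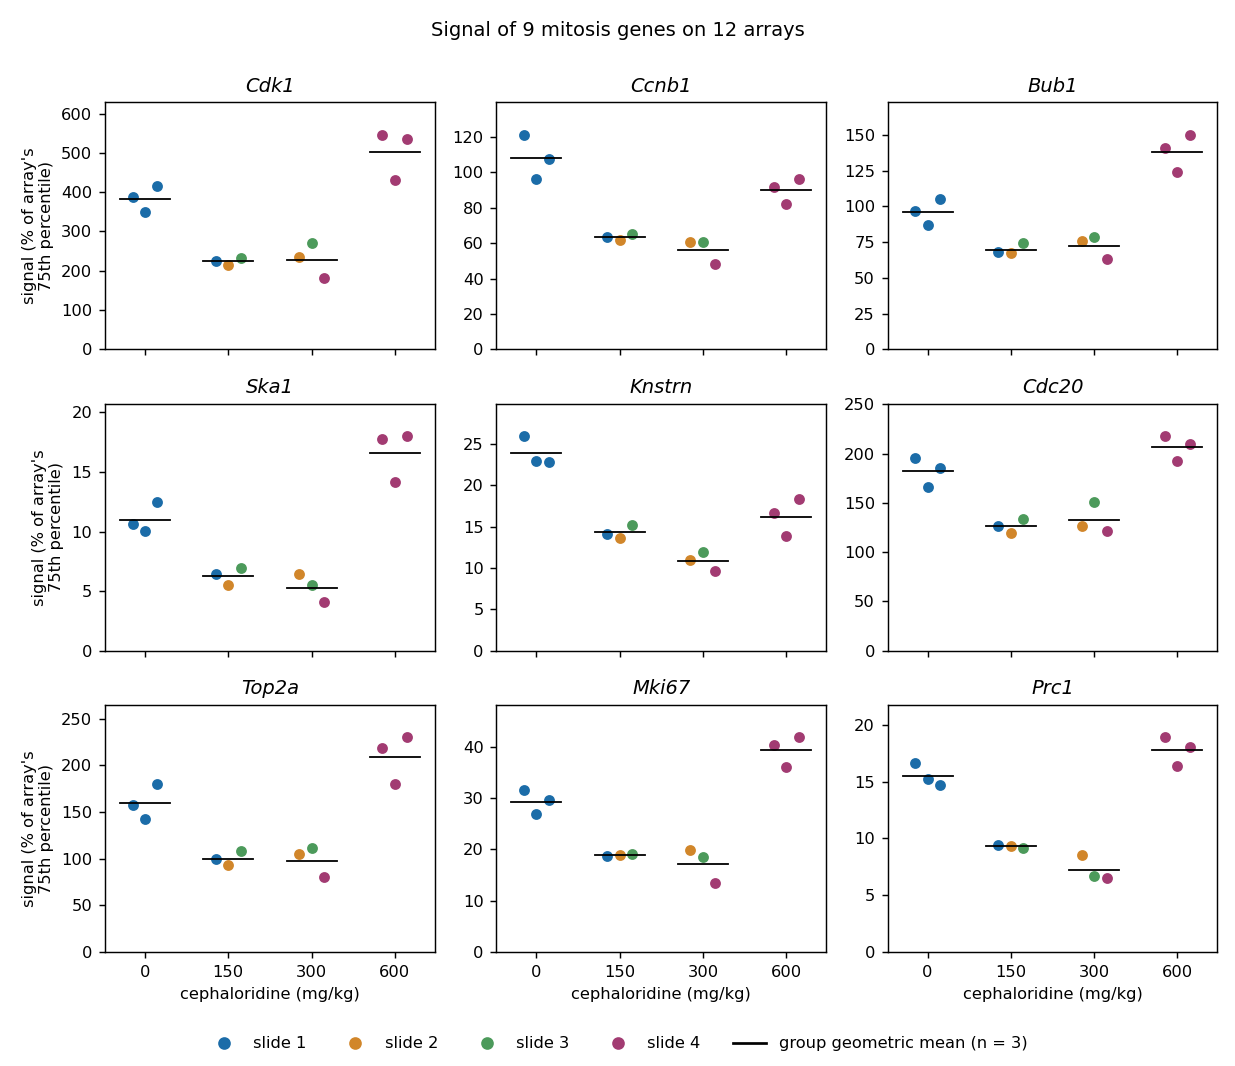
Each panel plots 1 gene, with CER dose in mg/kg on the horizontal axis and the signal of its brighter probe, as a percent of the array's 75th percentile, on the vertical axis; points are animals coloured by slide and lines are geometric means of 3. Low and middle animals lie below all 3 controls in every panel, and high animals lie above all 3 controls for Cdk1, Bub1, Ska1, Top2a and Mki67.

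Across the 9 genes, the low animals did not overlap the controls and were lower in 9 of 9, where 8.80% of all tested genes had low animals below every control. The middle animals were below every control in 9 of 9 genes, against 12.3% of tested genes. High animals were above every control in 5 genes (28.4% of tested genes) and below every control in Ccnb1 and Knstrn (27.6%), and overlapped the controls in Cdc20 and Prc1. They were above every middle animal in 9 of 9 (15.5%) and above every low animal in 8, all but Knstrn (23.5%). Since the 9 were picked for this course, these counts describe the choice. Middle and low animals differed less: Ccnb1, Knstrn and Prc1 had each middle animal below each low one (6.19% of tested genes), and the other 6 overlapped.

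The median log2 difference of the 9 from control was -0.74 at 150 mg/kg, -0.78 at 300 mg/kg and 0.39 at 600 mg/kg. Over all tested genes the medians were 0.01, 0.02 and -0.0021. Between CER doses the median of the 9 was 0.98 for high minus low and 1.09 for high minus middle, on genes whose overall medians were -0.02 in both. Genes differed in the size of that step: high minus low ran from 0.18 for Knstrn to 1.39 for Ska1, and high minus middle from 0.58 for Knstrn to 1.66 for Ska1.

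**Figure D2:**
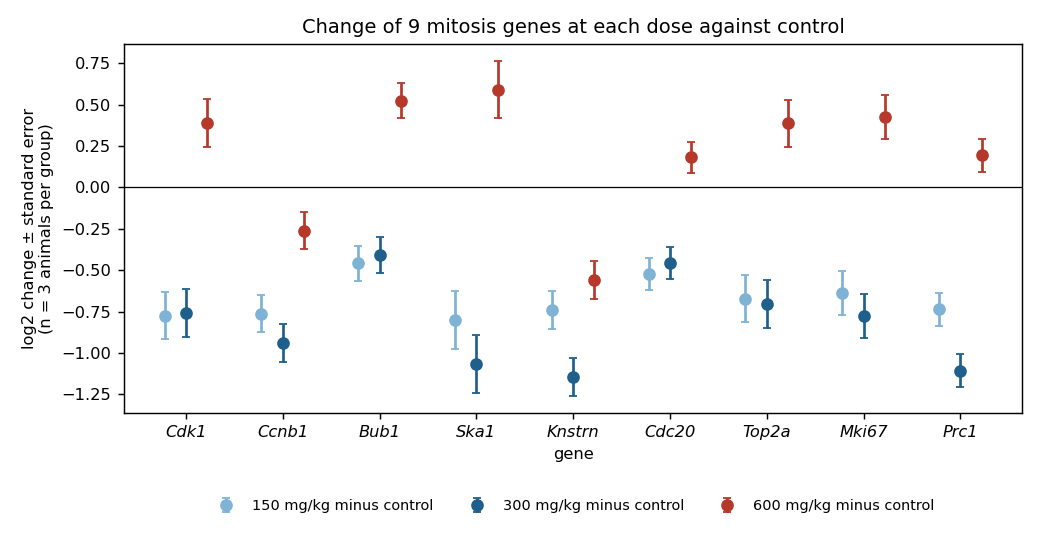
The vertical axis gives the log2 difference from control with its limma standard error (n = 3 animals per group) and the horizontal axis the 9 genes, with 150, 300 and 600 mg/kg side by side. Differences at 150 and 300 mg/kg run from -0.41 to -1.15, and those at 600 mg/kg from -0.56 for Knstrn to 0.59 for Ska1.

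The same animals were high or low across the genes. Middle 3 was the lowest middle animal and high 2 the lowest high animal in 9 of 9 genes, control 2 was the lowest control in 7, and low 2 the lowest low animal in 7. Averaged over the 9, with each gene centred on its 12 arrays, middle 3 lay at -0.73 while middle 1 and middle 2 lay at -0.38 and -0.37. High 2 lay at 0.36, against 0.60 and 0.63 on high 1 and high 3. Over the 12 arrays the correlation of each gene with the mean of the other members ran from 0.70 for Knstrn and 0.89 for Ccnb1 to 0.98 for Mki67. The arrays share their dose groups and slides, so these correlations describe the choice of genes and carry no test.

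Comparisons inside a slide leave out differences between slides, at the price of 1 array in 1 of the groups. On slide 1, low 1 minus the mean of the 3 controls was below 0 in 9 of 9 genes, from -0.77 to -0.49, with a median of -0.72. Of 20711 tested genes compared this way, 9579 were below 0. On slide 4, the mean of the 3 high animals minus middle 3 was above 0 in 9 of 9, from 0.74 for Knstrn to 2.02 for Ska1, with a median of 1.38. Among the 20711 tested genes 9163 were above 0 in that comparison. Middle minus low inside a slide was 0.09 in the median on slide 2 (6 genes above 0, 3 below) and -0.03 on slide 3 (4 above, 5 below). Of the 20711 tested genes 10480 were above 0 on slide 2 and 11676 on slide 3. Both steps, lower at 150 mg/kg than in controls and higher at 600 than at 300 mg/kg, were thus read inside a slide. In each, 1 side was a single animal, low 1 or middle 3. The 9 genes were chosen on these same arrays, so the signs describe the choice and are no separate support for the course. No slide held control and high animals together. Through the chain of slides, with slide as a block, the median of the 9 at 600 mg/kg minus control was 0.76, against 0.39 without the block. That fit joins the controls to the CER groups only through low 1. It joins the high animals to the other groups only through middle 3, the lowest middle animal in 9 of 9 genes. Its estimates therefore carry the deviations of these single animals.

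The other genes of mitosis were read from 7 lists by role, 115 genes in all, of which 101 were on the array and 90 were tested. Changes are from limma over all 20756 tested genes, with p-values adjusted by Benjamini and Hochberg's method and a threshold of 0.05. At 150 mg/kg 79 of the 90 had a log2 change below 0, with a median of -0.26, but 2 were called lower and 0 higher, where 0.0434% of all tested genes were called lower and 0.0578% higher. At an unadjusted p under 0.05 there were 51 lower and 1 higher, where 2092 of all 20756 tested genes passed that threshold in either direction. The 2 called were Ccnf, the cyclin F of a ubiquitin ligase (log2 -0.57 ± 0.08, adjusted p = 0.0343), and Pttg1, the securin that holds separase in check (-0.58 ± 0.09, adjusted p = 0.0445). Ccnf was well above background in only 1 of 3 low animals, so the size of its fall is uncertain. Pttg1 had 190, 194 and 207% at 150 mg/kg, against 316, 275 and 291% in controls. The Ccnf call was lost without any single array other than low 3, middle 2 or middle 3 (highest adjusted p = 0.209), and the Pttg1 call without any other than middle 2 or middle 3 (highest 0.239). With slide as a block 0 of the 90 were called in either direction at 150 mg/kg (38 lower and 2 higher at an unadjusted p under 0.05).

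At 300 mg/kg against control 28 of the 90 were called lower and 3 higher, with a median of -0.20, against 4.81% of all tested genes called lower and 8.21% higher. With arrays scaled to their median in place of their 75th percentile, all genes split into 721 lower and 2032 higher, against 999 lower and 1704 higher here. Without control 1 the 28 became 16, and with slide as a block 0 were called in either direction (limma, 21 lower and 3 higher at an unadjusted p under 0.05), with a median of -0.14. By role, 6 of 17 kinases and cyclins of mitotic entry were called lower. Among them Ccna2, the cyclin A2 of S phase and G2, fell by 0.74 (adjusted p = 0.00935), with 28.5, 29.4 and 23.0% in middle animals against 44.0, 38.8 and 52.5% in controls. Ccnb2, the second cyclin B, fell by 0.79 (adjusted p = 0.00436), and the mitotic kinase gene Plk1 fell by 0.71 (adjusted p = 0.0115). Aurkb, the kinase of the chromosomal passenger complex, did not pass at any dose and stood at -0.06 (adjusted p = 0.47).

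Of 19 kinetochore and checkpoint genes at 300 mg/kg, 6 were called lower and 1 higher. Cenpf, a kinetochore protein of late G2, fell by 0.84 (adjusted p = 0.00927). It was well above background in only 1 of 3 middle animals, so the size of this fall is uncertain. Cenpa, the histone H3 variant of centromeres, was not well above background in any middle animal and was at least 1.64-fold lower there than in controls (adjusted p = 0.0107). Zwint, a kinetochore scaffold, rose by 0.25 (adjusted p = 0.0108), with 2134, 2326 and 2133% in middle animals against 1888, 1824 and 1823% in controls. Spindle motors and assembly factors were called lower in 8 of 18. Fam83d, which positions the spindle, fell by 0.86 (adjusted p = 0.00729), and Kif20a, a kinesin of the central spindle, fell by 0.81 (adjusted p = 0.0102).

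In the smaller lists, 4 of 11 genes of anaphase and its ubiquitin ligase were called lower at 300 mg/kg and 1 higher. Ube2c, the ubiquitin-conjugating enzyme of that ligase, fell by 0.72 (adjusted p = 0.00632), and Pttg1 fell by 0.59 (adjusted p = 0.00507). Anapc2, a subunit of the complex, rose by 0.26 (adjusted p = 0.022), a call lost without control 1 or control 2 (highest adjusted p = 0.0844). Of 8 genes of the central spindle and cytokinesis 2 were called lower. These were Kif23, the motor of centralspindlin (log2 -0.53, adjusted p = 0.0127, lost without control 1 at 0.0541), and the survivin gene Birc5 (-0.37, adjusted p = 0.0162, lost without control 1 or control 2, highest 0.0564). No gene of chromosome condensation and cohesion was called in 7 tested (limma, 0 in each direction, and 1 lower and 0 higher at an unadjusted p under 0.05).

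At 600 mg/kg against control 49 of the 90 were called higher and 4 lower, with a median of 0.34, where 18.0% of all tested genes were called higher and 16.8% lower. With slide as a block 10 were called higher and 1 lower, and the median was 0.53; of the genes named below for this comparison, the calls of Pkmyt1, Cenpk, Cdc25b and E2f1 remained and the rest were lost. Called higher were 12 of 17 kinases and cyclins of entry, 12 of 19 kinetochore and checkpoint genes, 6 of 18 spindle genes, 4 of 8 of the central spindle, 5 of 11 of anaphase and 5 of 7 of condensation. Most of these were not the genes called lower at 300 mg/kg. Of those 28, 26 were called higher at 600 than at 300 mg/kg. Against control at 600 mg/kg, 8 of the 28 were called higher and 2 lower (Cdc25b and Cdc27). Of the 62 not called lower at 300 mg/kg, 41 were called higher at 600 mg/kg than in controls. Over all 90, 71.1% were called higher at 600 than at 300 mg/kg, and 54.4% higher at 600 mg/kg than in controls. The 28 were picked on the same middle and control animals that these counts use. The split itself therefore favours such a contrast, which was not tested. Pkmyt1, a kinase that holds CDK1 inactive, rose by 1.24 (adjusted p = 0.000188). Cenpk, a protein of the inner kinetochore, rose by 1.13 (adjusted p = 3.7e-05), and Ccna2 rose by 0.60 (adjusted p = 0.00558) to 70.3, 59.0 and 75.1% in high animals. Mastl, the Greatwall kinase that restrains a phosphatase opposing CDK1, was not well above background in any control and was at least 2.39-fold higher in high animals (adjusted p = 0.00225).

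Further rises at 600 mg/kg took in Espl1, the separase that cuts cohesin (log2 0.79, adjusted p = 0.00188), and Fbxo5, an inhibitor of the anaphase-promoting complex (0.72, adjusted p = 2.67e-05). Racgap1, the partner of Kif23 in centralspindlin, rose by 0.58 (adjusted p = 0.00455), with 91.1, 86.7 and 106% in high animals against 64.3, 55.4 and 69.8% in controls. The condensin subunit gene Ncapd2 rose by 0.51 (adjusted p = 0.000332) and the spindle kinesin gene Kif15 by 0.63 (adjusted p = 0.00495). Called lower were Cdc27, a subunit of the anaphase-promoting complex (-0.52, adjusted p = 0.00168), and Cdc25b, a phosphatase that activates CDK1 (-0.33, adjusted p = 0.00891). In the fit that blocked on slide the change of Cdc27 was -0.15 (adjusted p = 0.652) and that of Cdc25b -0.67, and those of Espl1 and Racgap1 were 1.36 and 0.93. Plk1 was at -0.01 (adjusted p = 0.943), Ccnb2 at -0.28 (adjusted p = 0.0655; 0.11 in the blocked fit, the opposite direction) and Birc5 at 0.09 (adjusted p = 0.396).

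Set against the 2 lower doses, 600 mg/kg had 64 of the 90 higher and 3 lower than 150 mg/kg (13.6% and 13.4% of all tested genes), with a median of 0.62. Against 300 mg/kg there were also 64 higher and 1 lower (9.60% and 12.9%), with a median of 0.62. Both comparisons use the same high animals. With slide as a block 50 and 57 were called higher, in a fit that joins the high animals to the other groups through middle 3 alone. Kif4a, a chromosome-bound kinesin, stood 1.43 above the middle group (adjusted p = 0.00162), Ccna2 1.34 (adjusted p = 0.000143) and Spag5, an organiser of spindle poles, 1.02 (adjusted p = 0.00114). Esco2, which locks sister chromatid cohesion in place, was at least 2.21-fold higher than at 300 mg/kg, where it was not well above background (adjusted p = 0.000883). Ttk, a checkpoint kinase, stood 1.33 above the low group (adjusted p = 0.00183), with 54.7, 46.8 and 57.8% in high animals against 24.0, 19.8 and 19.7% in low animals. That difference was 2.24 with slide as a block. Hmmr, a spindle-associated hyaluronan receptor, was lower than in the low group by a log2 change of -0.42 (adjusted p = 0.0448), a call lost without control 2 or 3, low 1, 2 or 3, middle 3, or high 1 or 2 (highest adjusted p = 0.157).

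Genes of DNA replication and S-phase entry, the stage before G2, were read on the same arrays. Of 36 listed, 33 were on the array and 32 were tested. At 150 mg/kg 0 were called in either direction by limma (1 higher and 2 lower at an unadjusted p under 0.05), with a median of -0.06. At 300 mg/kg 8 were called higher and 0 lower (14 and 0 unadjusted), with a median of 0.15. Among all 20756 tested genes 8.21% were called higher and 4.81% lower there, and 6316 passed unadjusted in either direction. Without control 1 the 8 became 3, and with slide as a block 0 were called (5 higher and 0 lower unadjusted). After 600 mg/kg 29 were called higher and 1 lower than in controls, with a median of 0.88, and 20 higher with slide as a block. Without the block 18.0% of all tested genes were called higher and 16.8% lower at that dose.

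Cdc6, which loads the replicative helicase, had 6.47, 6.48 and 6.43% in controls and 6.52, 7.00 and 7.66% at 150 mg/kg. It had 8.08, 8.31 and 9.21% at 300 mg/kg and 32.7, 29.7 and 33.7% at 600 mg/kg. Its change from control was 0.40 at 300 mg/kg (adjusted p = 0.0105) and 2.31 at 600 mg/kg (adjusted p = 2.4e-07). Blocking on slide gave 0.18 (adjusted p = 0.403) and 1.97 (adjusted p = 0.00395). Pcna, the sliding clamp of DNA polymerases, stood at 713, 654 and 727% in high animals against 378, 403 and 438% in controls, a rise of 0.78 (adjusted p = 2.67e-05) that was as large but no longer called with slide as a block (0.80, adjusted p = 0.0502). At 150 and 300 mg/kg it was at -0.04 (adjusted p = 0.874) and 0.03 (adjusted p = 0.751). Ccne1, the cyclin E1 of S-phase entry, rose by 2.22 at 600 mg/kg (adjusted p = 4.58e-06), and Cdt1, the partner of Cdc6 in helicase loading, rose by 0.56 at 300 mg/kg (adjusted p = 0.00685; 0.37 with slide as a block).

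**Figure D3:**
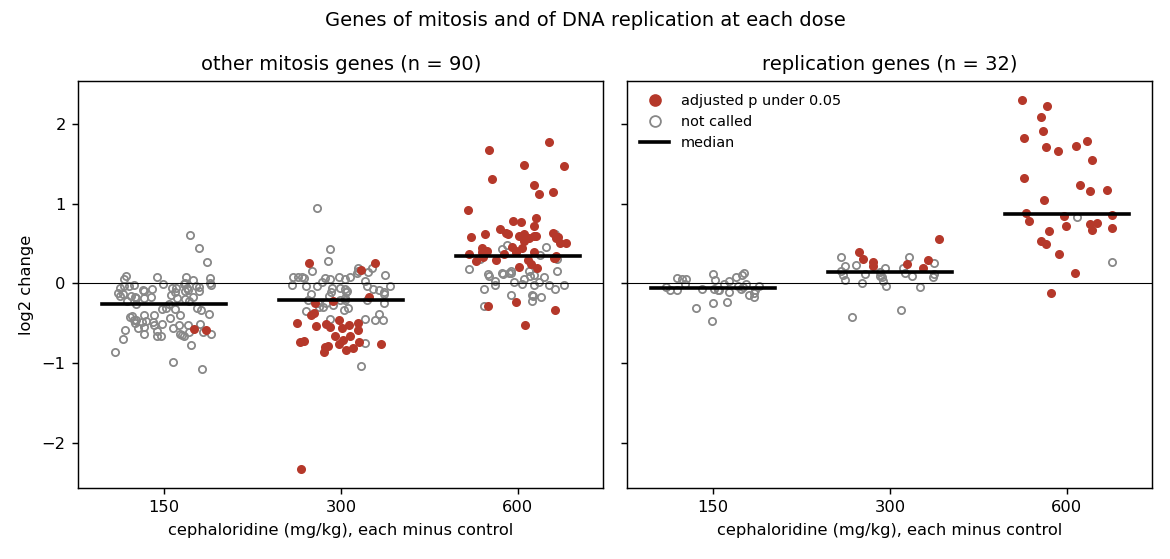
Points are genes, with the log2 change from control on the vertical axis and CER dose on the horizontal axis; filled points were called at adjusted p under 0.05 and bars are medians. The medians of the 90 other mitosis genes are -0.26, -0.20 and 0.34 at 150, 300 and 600 mg/kg, and those of the 32 replication genes -0.06, 0.15 and 0.88.

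**Figure D4:**
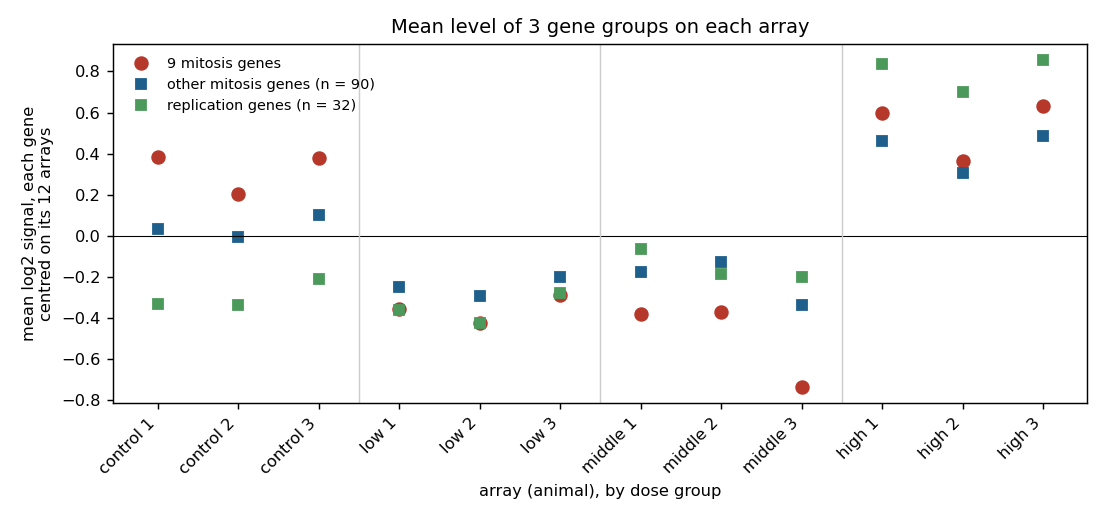
The vertical axis gives the mean log2 signal of a gene group on each array, each gene centred on its 12 arrays, and the horizontal axis the 12 animals by dose group. The 9 genes lie between 0.20 and 0.38 in controls, where the replication genes lie below 0, and both groups lie above 0 in all 3 high animals.

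Of 10 tested transcription factors and regulators of these genes, 1 was called higher and 2 lower at 300 mg/kg, and 5 higher and 1 lower at 600 mg/kg (0 called at 300 mg/kg and 2 higher at 600 mg/kg with slide as a block, and 0 at an unadjusted p under 0.05 at 300 mg/kg). The shares of all tested genes called higher and lower were 8.21% and 4.81% at 300 mg/kg and 18.0% and 16.8% at 600 mg/kg. E2f1, an activator of S-phase genes, had 350, 278 and 325% in high animals against 89.0, 89.6 and 98.8% in controls, a rise of 1.78 (adjusted p = 2.18e-06). At 150 mg/kg it was at -0.18 (adjusted p = 0.54) and at 300 mg/kg at 0.28 (adjusted p = 0.0672). Foxm1, an activator of genes of G2 and mitosis, fell by 0.24 at 300 mg/kg (adjusted p = 0.0318) and rose by 0.50 at 600 mg/kg (adjusted p = 0.000318). The fall was lost without control 1, 2 or 3 or middle 1 or 3 (highest adjusted p = 0.0962). Foxm1 had 70.5, 70.0 and 70.6% at 150 mg/kg, where it was at -0.22 (adjusted p = 0.292). Mybl2, the B-Myb activator of late cell cycle genes, was well above background in 1 of 3 controls and in 3 of 3 high animals, with a rise of 1.32 (adjusted p = 0.000373). Rbl2, a pocket protein of the complex that represses these genes in resting cells, fell by 0.23 at 600 mg/kg (adjusted p = 0.00324).

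Of 12 tested brakes of the cell cycle, 0 were called at 150 mg/kg by limma (3 higher and 1 lower unadjusted), 1 higher and 1 lower at 300 mg/kg, and 4 higher and 3 lower at 600 mg/kg. For scale, 8.21% of all tested genes were called higher and 4.81% lower at 300 mg/kg, and 18.0% and 16.8% at 600 mg/kg. Blocking on slide left 0 higher and 1 lower at 300 mg/kg (1 and 3 unadjusted) and 0 higher and 1 lower at 600 mg/kg (3 and 3 unadjusted). Cdkn1a, the p21 inhibitor of cyclin-dependent kinases, was at 0.14 at 150 mg/kg (adjusted p = 0.874) and -0.14 at 300 mg/kg (adjusted p = 0.699). At 600 mg/kg it rose by 0.91 (adjusted p = 0.00843), with 102, 142 and 143% in high animals against 60.3, 83.0 and 62.1% in controls. With slide as a block that change was -0.05, so its direction rests on arrays of different slides. Cdkn1b, the p27 inhibitor, was at -0.06 at 150 mg/kg (adjusted p = 0.725) and -0.12 at 300 mg/kg (adjusted p = 0.144), and fell by 0.37 at 600 mg/kg (adjusted p = 0.000596), a call lost with slide as a block (-0.27, adjusted p = 0.265). At 300 mg/kg Ccng1, the cyclin G1 induced by p53, rose by 0.30 (adjusted p = 0.0121). That call did not hold when control 1 was left out (adjusted p = 0.0531), nor in the fit that blocked on slide (change 0.35, adjusted p = 0.164).

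Tested genes outside the 9 were ranked by the correlation of their course over the 12 arrays with the mean of the 9. Only genes with a reference symbol and a value on all 12 arrays were ranked, so unmatched transcripts could not appear. The highest were Ube2c (r = 0.99), Arhgap11a (0.99), Ckap2 (0.98), Aurka (0.98), Spag5 (0.98), Kif23 (0.98), Fam83d (0.97) and Dlgap5 (0.97). Ube2c had 44.9, 40.8 and 44.8% in controls, 29.7, 26.6 and 29.3% at 150 mg/kg, 26.8, 30.7 and 22.3% at 300 mg/kg and 50.2, 42.3 and 50.3% at 600 mg/kg. Among the 50 ranked genes highest by this measure, 34 were on the lists of other mitosis genes, 0 on the replication list and 16 on no list. Arhgap11a, a GTPase-activating protein, was the highest of those on no list. Its log2 differences from control were -0.55, -0.63 and 0.27 at 150, 300 and 600 mg/kg.

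In promoters, the same window held TTTGAA or TTTAAA in 66 of 97 other mitosis genes (68%) and in 5 of 33 replication genes (15.2%). A CCAAT box stood in 63.9% and 63.6% of them. Among other mitosis genes, TTTGAA or TTTAAA stood in 22 of 26 called lower at 300 mg/kg (84.6%) and in 31 of 49 tested and not called lower there (63.3%). Taken singly, TTTGAA stood in 65.4% and 59.2% of these groups and TTTAAA in 34.6% and 16.3%, so the wider gap was in the variant. The difference between the groups was not tested. In Cdk1, whose sequence is printed above, the elements nearest the start begin 16 bases (TTTGAA) and 49 bases (CCAAT) before it. In Ccnb1 TTTAAA begins 25 and the nearer CCAAT box 50 bases before the start. In Prc1 TTTGAA begins 18 and the nearer CCAAT box 50 bases before it.

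**Figure D5:**
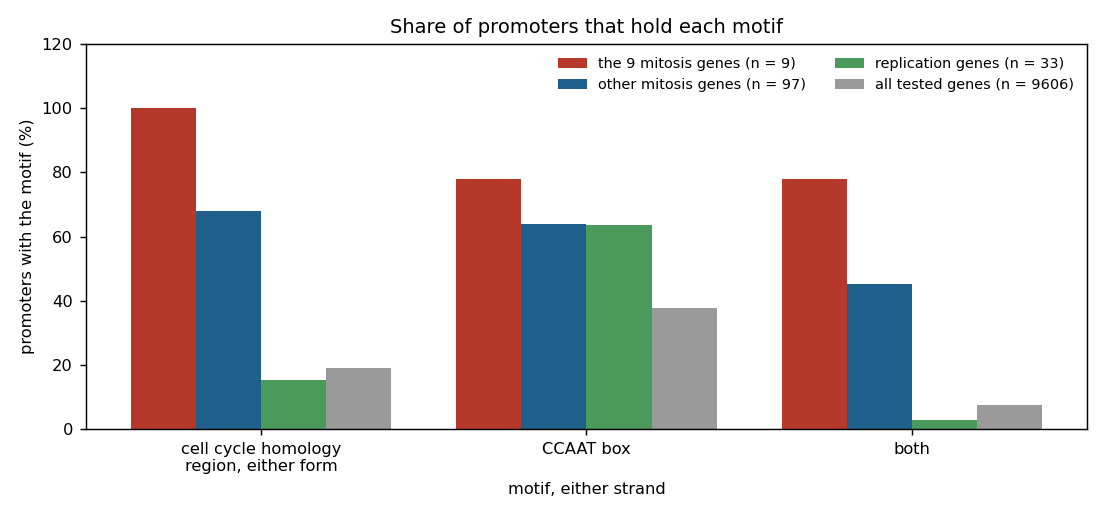
Bars give the percent of promoters that hold the cell cycle homology region in either form, a CCAAT box or both, in a window from 250 bases before to 50 after the start, for 4 sets of genes. The homology region stands in 9 of 9 promoters of the mitosis genes chosen here, 68% of other mitosis genes, 15.2% of replication genes and 19.2% of tested genes, while CCAAT boxes stand in 63.9% of other mitosis and 63.6% of replication genes.

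Markers of cell types moved with dose as well, where 18.0% of all tested genes were called higher and 16.8% lower at 600 mg/kg than in controls. Of 9 proximal tubule markers 8 were called lower at 600 mg/kg than in controls and 0 higher, and their summed signal ran from 69630 to 73403% of the 75th percentile, against 91135 to 95545% in controls. Blocking on slide left 2 of the 9 called lower, with a median of -0.28, against -0.45 without the block. Slc34a1, the phosphate carrier of the brush border, fell by 0.59 (adjusted p = 2.67e-05), and the blocked fit kept it below the threshold (adjusted p = 0.0455). Of 7 tested macrophage markers 5 were called higher at 600 mg/kg (1 with slide as a block), with sums from 2853 to 3106%, against 2156 to 2624% in controls, and Cd163 was well above background on no array. Adgre1, the F4/80 antigen, rose by 0.88 (adjusted p = 3.7e-05), a call lost with slide as a block (0.70, adjusted p = 0.0588). Endothelial markers were called lower in 6 of 7, with sums from 4495 to 4764%, against 5660 to 5960% in controls. Blocking on slide left 0 of these 6 calls (limma, 3 lower at an unadjusted p under 0.05), with a median of -0.29, against -0.28 without the block. Markers of the loop, distal tubule and collecting duct were called higher in 3 of 6 tested, with sums from 46556 to 47969%, against 41061 to 44377% in controls, and in 1 with slide as a block. Fibroblast markers were called higher in 2 of 6 and podocyte markers lower in 1 of 4, of which the blocked fit kept none.

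At 150 and 300 mg/kg, where the 9 genes were lower than in controls, macrophage sums ran from 2514 to 2741% and from 2666 to 2964%. Proximal tubule sums ran from 87544 to 96578% at 150 mg/kg, overlapping the controls, and from 84951 to 88884% at 300 mg/kg, where 1 of 9 was called lower. Endothelial sums ran from 5526 to 5729% at 150 mg/kg and from 5260 to 5353% at 300 mg/kg, where all 7 markers had a change below 0 and 2 were called lower. Sums of the loop, distal tubule and collecting duct ran from 42480 to 45556% at 150 mg/kg and from 44938 to 48962% at 300 mg/kg, where 2 of 6 were called higher. None of these calls at 300 mg/kg held in the blocked fit. Without the block 8.21% of all tested genes were called higher and 4.81% lower at that dose. Of the red cell precursor markers, 3 were on the array, and their sum was 351 to 453% at 150 mg/kg and 178 to 278% at 300 mg/kg, against 371 to 401% in controls. It was 191 to 304% at 600 mg/kg. By limma 1 of these 3 was called lower at 300 mg/kg and 3 at 600 mg/kg. With slide as a block 0 were called at either dose, and 3 were lower at an unadjusted p under 0.05 at each. Among T and NK cell markers 6 of 8 were tested (Cd3e well above background on no array), with 1 called higher and 2 lower at 600 mg/kg (none with slide as a block) and sums from 207 to 234%, against 191 to 221% in controls. None of the 3 B cell markers on the array passed the filter, and Cd79b was well above background on no array. The part of these cell types in the levels of the 9 mitosis genes was not tested.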

How the data were processed

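Total RNA of kidney cortex was hybridised to one-colour Agilent rat arrays, 1 per animal. Per the file headers, Feature Extraction 9.1.3.1 gave processed, mean and background signals as linear intensity values, with local background subtraction and no scaling between arrays; other columns are flags of 0 or 1, per the file headers. The authors' deposited value table is a linear ratio of that signal to 1 constant per array; 40749 of 40749 probes spotted once lay within 0.1% of this rule on each array, its column medians ran from 1.003 to 1.005, and 0 of its 12 columns were unused. Probes were named by accession (10735), symbol (5571) or older symbol (3729) through RefSeq's GRCr8 table, and 20977 kept the name in the array files, which can be old.

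The values are log2 processed signals minus each array's 75th percentile, with outlier spots left out. The probe with the highest mean stood for a gene, and a gene was tested if every array of some group had it well above background. limma 3.58.1 in R 4.3.3 fitted 1 mean per group to all 12 arrays with 8 residual degrees of freedom. Errors after ± are standard errors from that fit (n = 3 animals per group), tests were two-sided, and adjusted p is Benjamini-Hochberg over all tested genes of a comparison. The number of arrays limits the precision. Where a group was not well above background, the fold is a bound against the lowest signal well above background on each array. The fit was tested on simulated data. P-values measure the spread between arrays of the same group. Low and middle animals lay on several slides, so their spread mixes animals and slides. Control animals shared a slide, and high animals shared another, so the spread in these groups holds no difference between slides. Without slide as a block, p-values of high against control therefore do not separate dose from slide.

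The 9 genes, the lists and the tests were chosen with earlier results of these data known, so no pattern here is independent support for those results. Named are the 9 genes, in each list and comparison up to 2 called genes with the largest rise and 2 with the largest fall whose groups do not overlap, the 8 most correlated genes, and Foxm1, Mybl2, E2f1, Cdkn1a, Cdkn1b, Ccne1, Cdc6, Pcna, Plk1, Aurkb, Ccna2, Ccnb2 and Birc5. Slides and scan days were read from the file headers. Alternatives were a median shift, quantile normalization, normexp correction with an offset of 50, the authors' value table, other filters on dim probes, the mean of a gene's probes, the replicate number or the slide as a block, only the groups compared, a 2-fold limit and leaving out each array. Comparisons inside a slide and a fit without slide 2 were added after seeing the data. Promoter windows are RefSeq's, from 250 bases before to 50 after the start; all 9 genes matched. Some results are not reported here.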

Additional observations from a re-analysis of the deposited data

How the results depend on the processing

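Every one of the 9 genes kept its sign in the 5 comparisons with control or between 600 mg/kg and a lower dose with quantile normalization, a median shift, normexp, the authors' value table, the mean of a gene's probes, either block, without slide 2 and without each array in turn, except Ccnb1 at 600 mg/kg minus control with slide as a block. The median of the 9 genes moved under normexp background correction to -0.45 at 150 mg/kg and -0.59 at 300 mg/kg minus control, 0.69 for 600 minus 150 mg/kg and 0.81 for 600 minus 300 mg/kg. With slide as a block it moved to -0.63 at 300 and 0.76 at 600 mg/kg minus control, and to 1.25 and 1.38 for 600 minus 150 and 600 minus 300 mg/kg. Leaving out 1 array gave medians from -0.75 to -0.68 at 150 mg/kg, -0.89 to -0.61 at 300 mg/kg and 0.31 to 0.49 at 600 mg/kg minus control, and from 0.92 to 1.06 and 0.95 to 1.20 for 600 minus 150 and 600 minus 300 mg/kg.

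Calls of other mitosis genes were less stable at the lower doses. The 2 lower at 150 mg/kg became 1 with quantile normalization, a median shift, the authors' value table or genes well above background on all 12 arrays, 7 with normexp, and 0 without a filter, with slide as a block, with only the groups compared, without slide 2 or with a 2-fold limit. The 28 lower at 300 mg/kg became 0 with slide as a block, 3 with only the groups compared and 1 with a 2-fold limit. The 49 higher at 600 mg/kg became 10 with slide as a block and 8 with a 2-fold limit, which also left 24 of the 64 above 150 mg/kg and 22 of the 64 above 300 mg/kg. The 8 replication genes higher at 300 mg/kg became 4 without a filter and 0 with slide as a block, only the groups compared or a 2-fold limit. With that limit the 29 higher at 600 mg/kg became 15 against control and 14 against 300 mg/kg. Leaving out 1 array gave 0 to 5, 16 to 30, 40 to 52, 57 to 69 and 56 to 65 mitosis genes in these 5 comparisons, and 3 to 8, 28 to 30 and 28 to 29 replication genes. Same-numbered animals did not deviate together (1 of 18 pairs correlated over 0.1, and 2 of 12 arrays correlated best with their own number), so the numbers are not taken as pairs. With the replicate number as a block 0 mitosis genes were called lower at 150 mg/kg and 5 replication genes higher at 300 mg/kg.

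Over all tested genes, 21, 2703 and 7222 were called at 150, 300 and 600 mg/kg against control, and 7, 45 and 582 with slide as a block, which leaves 5 residual degrees of freedom in place of 8 and raises the median standard error at 600 mg/kg from 0.076 to 0.15. Between 600 mg/kg and 150 or 300 mg/kg the calls were 5599 and 4663, and 1314 and 2022 with slide as a block. With only the groups compared, 159 genes were called higher and 105 lower at 300 mg/kg. The causes of the other changes were not tested.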
